A study of Mus musculus with 2 samples.

Results

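The angiopoietin and Tie system was examined through 6 of the 31053 genes in the count files: the receptors Tek (the gene of TIE2) and Tie1, the receptor phosphatase Ptprb (VE-PTP), the ligands Angpt1 and Angpt2, and the matrix protein gene Svep1. The genes were chosen by name, and their counts were read by library and by endothelial class. The cells came from lungs of wild-type C57BL/6 mice (male in the study's methods), taken 6 h after a tail vein injection and sorted for the surface protein PECAM1 (CD31) without a gate against leukocytes. The control library came from mice given phosphate-buffered saline, and the metastatic library from mice given 200000 B16-F10 cells each, a mouse skin melanoma line that had been labelled with a green dye. Each library pooled 2 mice and each group held 1 library, so the spread between mice was not measured and groups were not tested against each other. The 95% intervals given in parentheses hold only the error of counting molecules.

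TIE2 is a receptor tyrosine kinase of endothelial cells. ANGPT1, made mainly by perivascular and mesenchymal cells and carried by platelets, activates it, which favors vessel stability through AKT and keeps FOXO1 out of the nucleus. ANGPT2 is stored in the Weibel-Palade bodies of endothelial cells and can act as a context-dependent antagonist. TIE1 is a related receptor that modulates TIE2, and VE-PTP removes phosphate from TIE2 and dampens its signaling. SVEP1 is a large extracellular matrix protein that binds TIE1.

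A barcode was taken as a cell when it held between 1000 and 5000 genes and less than 20% mitochondrial molecules, 7134 in the control and 6466 in the metastatic library. Each RNA molecule carried a unique molecular identifier (UMI), and the libraries held 67929614 and 64733724 of them. Cells with 2 or more of Ednrb, Fibin and Tbx2 were placed in the aerocyte class (1364 control and 1086 metastatic cells), those with 2 or more of Slc6a2, Car8 and Bst1 in the vein class (247 and 304) and those with 2 or more of Gja5, Bmx and Fbln5 in the artery class (63 and 59). Cells with 2 or more of Gpihbp1, Aplnr, Kit and Lpl and none of the other 3 classes made up the general capillary class (5020 and 4519). Cells that met more than 1 of the aerocyte, vein and artery rules (46 and 32), or no rule at all (394 and 466), were kept out of the classes. Cells that met 1 of these 3 rules stayed in that class whatever general capillary markers they held.

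The classes were checked with genes that the rule did not use, and at least 98.3% of the cells of every class held 2 or more of Pecam1, Cdh5, Cldn5 and Egfl7. The summed level of Apln, Car4 and Chst1 was 1685 and 1658 CPM (UMIs of a gene per 1000000 UMIs of its class and library) in control and metastatic aerocytes and at most 167 CPM in the other classes. Vwf, Nr2f2, Vcam1 and Prss23 summed to 5275 and 4818 CPM in vein cells, but also to 2091 and 2048 CPM in artery cells. Sox17, Hey1, Efnb2 and Cxcl12 summed to 3022 and 3107 CPM in artery cells and to 1343 and 1476 CPM in general capillary cells. Cd93, Hmcn1 and Adgrl3 summed to 3196 and 2710 CPM in general capillary cells. They reached 2602 and 2267 CPM in vein cells, so this list set the general capillary class apart from veins only weakly. The vessel classes were not uniform. In the control library 55.6% of aerocytes, 59.9% of vein cells and 81.0% of artery cells also held 2 or more general capillary markers. In the metastatic library the shares were 54.4%, 54.3% and 62.7%. Only aerocytes were later split by these markers. Barcodes called in both libraries numbered 16, where 6.79 were expected if the libraries shared barcodes by chance alone.

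Tek, at chr4:94739289-94874976 on the plus strand (GRCm38), was most abundant in general capillary and artery cells and least abundant in aerocytes. Its level in the control library was 419 CPM (412 to 426) in general capillary cells, 410 CPM (355 to 470) in artery cells, 308 CPM (286 to 332) in vein cells and 160 CPM (153 to 168) in aerocytes. In the metastatic library the same classes stood at 454, 432, 341 and 183 CPM. The order was the same in both libraries, and general capillary and artery cells, neighbors in it, did not differ beyond counting error. Against general capillary cells of the same library, the aerocyte level had a log2 ratio of -1.39 (-1.46 to -1.32) among control cells and of -1.31 (-1.38 to -1.24) among metastatic cells. The vein class lay between them, with log2 ratios of -0.44 (-0.56 to -0.33) and -0.41 (-0.51 to -0.31).

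Tie1, at chr4:118471191-118490061 on the minus strand, was nearly even over the vessels. The control levels were 223 CPM (204 to 244) in vein cells, 204 CPM (199 to 209) in general capillary cells, 193 CPM (156 to 235) in artery cells and 183 CPM (176 to 191) in aerocytes. The metastatic levels were 226, 210, 216 and 180 CPM in that order. Neighboring classes in the control order did not differ beyond counting error. Aerocytes were below general capillary cells by a small amount, with log2 ratios of -0.15 (-0.22 to -0.08) among control and -0.22 (-0.30 to -0.14) among metastatic cells. The Tek and Tie1 ratios of aerocytes to general capillary cells had intervals that did not overlap in either library, so the receptors parted in aerocytes.

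Bases before the RefSeq starts of both receptor genes are shown because the receptors, on the same chromosome, differed in how their RNA was spread over the classes. RefSeq promoter windows (GRCm38.p6) were matched for 3 of the 6 genes, Tek, Tie1 and Svep1. Capitals mark GGAA, the core of the motif of ETS transcription factors, on either strand (TTCC is the same motif on the other strand). The first sequence is the 250 bases before the RefSeq start of Tek, chr4:94739039-94739288 on the plus strand, and the second the 30 bases with most matches before that of Tie1, chr4:118490051-118490080 on the minus strand, at positions -231 to -202 from the RefSeq start. That start lies inside the Tie1 span given above from GENCODE, so most of the Tie1 window, and some of the bases printed, are within the gene in that annotation, whereas the Tek window ends where the GENCODE gene begins.
Tek: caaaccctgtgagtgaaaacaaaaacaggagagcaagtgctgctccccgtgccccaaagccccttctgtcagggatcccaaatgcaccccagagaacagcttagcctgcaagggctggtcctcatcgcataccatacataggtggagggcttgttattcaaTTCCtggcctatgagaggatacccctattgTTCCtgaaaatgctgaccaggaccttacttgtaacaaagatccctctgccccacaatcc
Tie1: GGAAgccactggcTTCCtccctTTCCtgtc
The Tek window held 2 matches and the 250 bases before the RefSeq start of Tie1 held 7, where the median over all 32851 windows was 3 and 93.4% of windows held at least 1. AGATAA, a motif of GATA factors, was in neither of these windows on either strand, and 9.99% of all windows held it. These letters are a description of the windows and not evidence of binding.

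Ptprb, at chr10:116275523-116389535 on the plus strand, followed the pattern of Tek in aerocytes but not in veins. The control levels were 3749 CPM (3668 to 3830) in vein cells, 3401 CPM (3240 to 3568) in artery cells, 2827 CPM (2809 to 2846) in general capillary cells and 1085 CPM (1066 to 1105) in aerocytes. In the metastatic library artery cells (3423 CPM) and vein cells (3380 CPM) had overlapping intervals, and general capillary cells (2786 CPM) and aerocytes (1116 CPM) again followed. The log2 ratio of aerocytes to general capillary cells was -1.38 (-1.41 to -1.35) and -1.32 (-1.35 to -1.29) in the libraries. The log2 ratio of vein to general capillary cells was 0.41 (0.37 to 0.44) in the control and 0.28 (0.25 to 0.31) in the metastatic library.

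**Figure D1:**
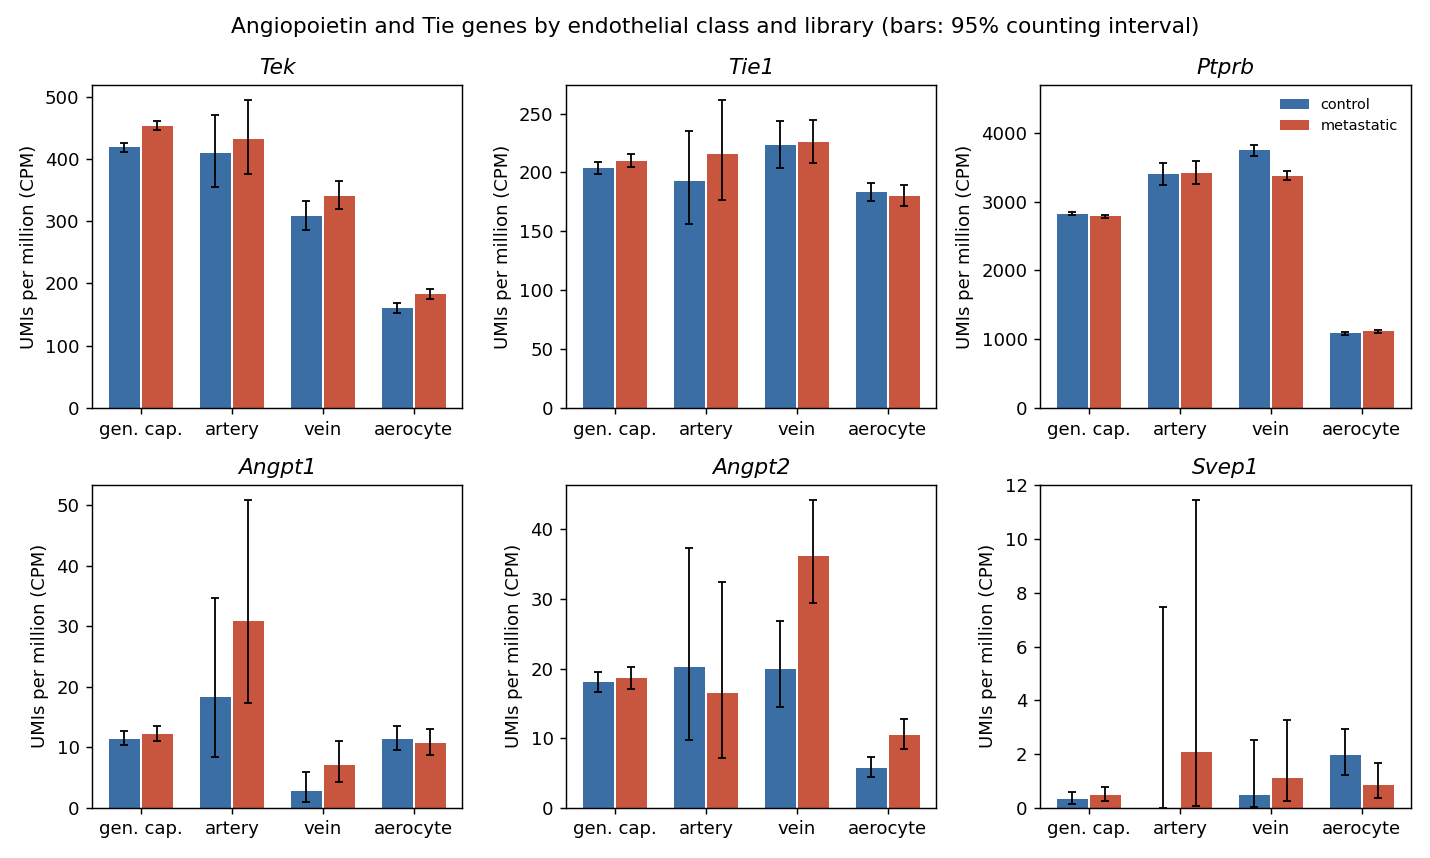
Level of each gene in CPM of the class (vertical axes, from 0) by endothelial class and library; bars are class sums in the control (blue) and metastatic (red) library and whiskers are 95% Poisson intervals for counting error. Tek and Ptprb are lowest in aerocytes, Tie1 is nearly even, and Angpt2 stands at 36.3 CPM in metastatic vein cells against 19.9 CPM in control vein cells.

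Tek, Ptprb and Angpt2 passed a difference of 0.5 on the log2 scale between aerocytes and general capillary cells in each library, all lower in aerocytes, which makes 3 of the 5 members that had 50 or more UMIs over the pair of sums. Svep1 did not reach that number in any class. Over all genes tested, 16.8% were lower in aerocytes by that much among control cells and 15.6% among metastatic cells. Percentile ranks among all genes tested were 3.43 for Tek, 3.47 for Ptprb and 34.4 for Tie1 in the control library, where a low rank means a lower level in aerocytes.

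In vein cells Angpt1 was past that difference, lower than in general capillary cells, in each library (6 and 19 vein UMIs), where 16.9% and 14.9% of genes were lower by as much. Angpt2 was past it in metastatic vein cells, with a log2 ratio of 0.96 (0.64 to 1.27), where 13.3% of genes were higher, and not in control vein cells (0.15, -0.33 to 0.59). In artery cells Angpt1 was past it on 9 and 15 UMIs, with log2 ratios of 0.68 (-0.47 to 1.62) and 1.34 (0.48 to 2.08), where 16.3% and 16.9% of genes were higher. With cells that held 2 or more markers of another type left out, 3 control artery UMIs remained and the control ratio was -0.13, no longer past the difference and of the other sign.

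Shares of cells at equal depth were lower in aerocytes for Tek and Ptprb, as the sums were. After every cell had been thinned to 2000 UMIs, Tek was found in 55.1% (53.7 to 56.5) of control general capillary cells and 22.8% (20.6 to 25.2) of control aerocytes, and Ptprb in 98.2% (97.8 to 98.6) and 55.4% (52.7 to 58.1). Tie1 was found in 33.0% (31.6 to 34.3) and 32.3% (29.8 to 34.8), whose intervals overlapped. Without thinning, the shares for Tek were 84.9% and 49.0%, for Ptprb 99.4% and 74.3% and for Tie1 67.1% and 74.4%, at median depths of 5951 and 7911 UMIs, so the unthinned Tie1 share was higher in aerocytes, the deeper cells, although the Tie1 level was lower. Lymphoid cells, which should lack these genes, served as a background. They held 2 or more B or T cell markers and fewer than 2 of Pecam1, Cdh5, Cldn5 and Egfl7. They were thus picked for low endothelial RNA and may understate what a barcode picks up. In 45 control cells with a median of 4704 UMIs, 2 held a Tek UMI, 3 a Tie1 UMI and 8 a Ptprb UMI. Their Ptprb level was 42.6 CPM (20.4 to 78.4).

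Within the aerocyte class, Tek and Ptprb followed the number of general capillary markers that a cell held, and Tie1 much less so. Control aerocytes with 0, 1, 2, 3 and 4 of these markers (199, 406, 248, 413 and 98 cells) had Tek levels of 33.9, 43.4, 85.9, 286 and 344 CPM. Metastatic aerocytes (221, 274, 178, 316 and 97 cells) had 31.5, 46.3, 123, 313 and 368 CPM. In both libraries the step between 2 and 3 markers was the widest for Tek in CPM, though as a ratio the metastatic step between 1 and 2 markers was slightly wider. Ptprb ran from 116 CPM in control aerocytes with no such marker to 2543 CPM in those with all 4, and from 100.1 to 2171 CPM in metastatic aerocytes. Tie1 ranged from 159 to 241 CPM in control and from 153 to 207 CPM in metastatic aerocytes. In the control library it rose beyond counting error, from 159 CPM (139 to 181) with no marker to 241 CPM (211 to 275) with all 4.

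Split at 2 markers, the 605 control aerocytes with fewer held Tek at 40.3 CPM (34.6 to 46.7) and Ptprb at 183 CPM (171 to 196), against 238 CPM (227 to 250) and 1672 CPM (1642 to 1703) in the 759 with more. The metastatic values were 39.9 and 151 CPM in 495 cells against 275 and 1740 CPM in 591 cells. Tie1 stood at 166 and 195 CPM in the control and 156 and 196 CPM in the metastatic library. The level of Ptprb in aerocytes with fewer markers was above that of lymphoid cells, themselves picked for few endothelial markers, in each library. Their Tek level had an interval just above the 30.8 CPM upper limit of the 45 control lymphoid cells, but in the metastatic library its interval (33.7 to 46.9) overlapped that of the 42 lymphoid cells, at 17.4 CPM (4.75 to 44.7). Barcodes with 11 to 50 UMIs, too few to be cells, had more of both genes than these aerocytes, with Tek at 83.8 CPM (63.1 to 109) and 68.6 CPM (50.9 to 90.5).

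The cells also differed in depth and in doublet calls. Median depth was 7501 and 8499 UMIs in control aerocytes with fewer and more general capillary markers, and 1.82% and 21.7% of them were marked as doublets by a score against simulated doublets. Metastatic values were 7486 and 8957 UMIs, with 1.21% and 22.0% marked. With marked cells left out, Tek stood at 38.7 CPM (33.1 to 45.0) and 248 CPM (235 to 263) in the control library and Ptprb at 180 CPM (168 to 193) and 1699 CPM (1663 to 1736), so the gap remained without the marked cells. The marks covered a preset share of cells by score, and the part of unmarked mixed barcodes in the gap was not tested. General capillary cells held at most 1 aerocyte marker, because the class rule placed cells with more outside this class. Those with 1 differed little from those with none, which by this limit is no check on mixed barcodes. Tek was 421 CPM in control general capillary cells with no aerocyte marker and 414 CPM in those with 1, and Ptprb 2836 and 2806 CPM.

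**Figure D2:**
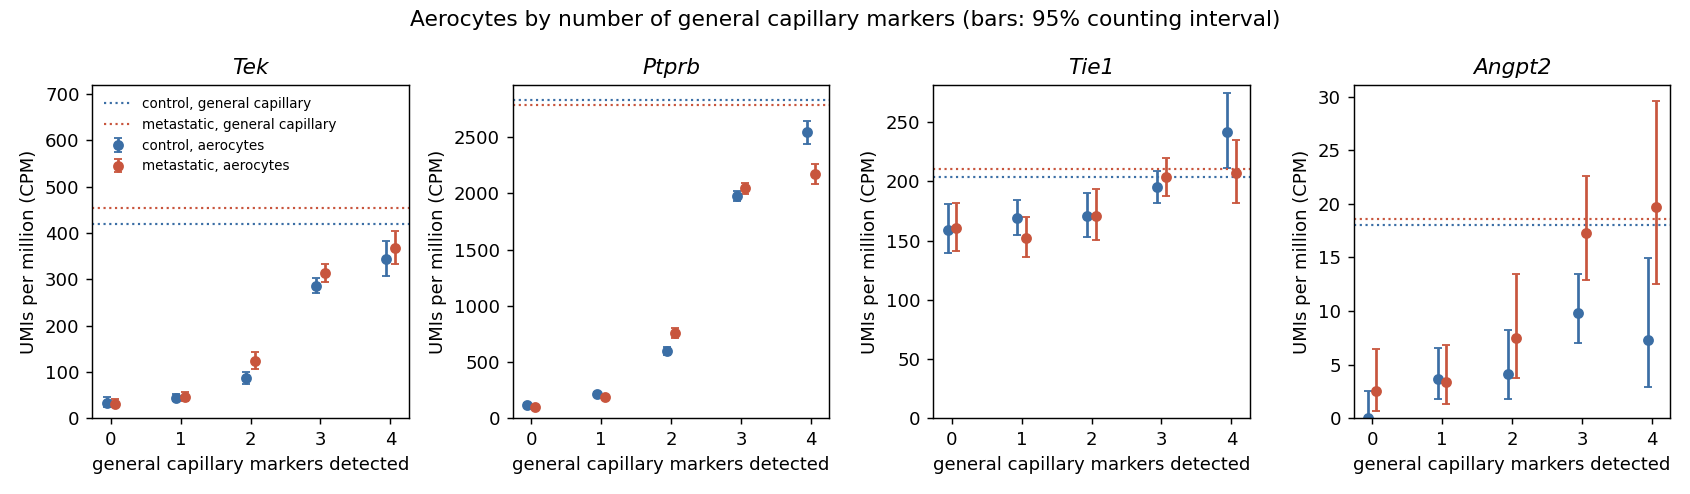
Level in CPM (vertical axes, from 0) of Tek, Ptprb, Tie1 and Angpt2 in aerocytes grouped by how many of Gpihbp1, Aplnr, Kit and Lpl were detected in the cell (horizontal axes); points are sums over the cells of a library, whiskers 95% Poisson intervals, and dotted lines the general capillary level of each library. Tek climbs from 33.9 to 344 CPM and Ptprb from 116 to 2543 CPM in the control library, while Tie1 ranges from 159 to 241 CPM.

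The comparison of metastatic with control cells asked whether the system differed 6 h after the arrival of melanoma cells. In general capillary cells the receptors and their phosphatase were close to level. Tek was at 419 CPM in control and 454 CPM in metastatic cells, a log2 ratio of 0.12 (0.08 to 0.15). Tie1 was at 204 and 210 CPM, a log2 ratio of 0.05 (-0.004 to 0.096), and Ptprb at 2827 and 2786 CPM, with a log2 ratio of -0.02 (-0.04 to -0.01). None of the 5 members with 50 or more UMIs passed the fold of 0.5 in this class, where 9.63% of 12165 genes did. Tek lay at percentile 68.7 of all genes tested and Ptprb at 39.8, near the middle of the genes in these cells.

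Tek was higher in the metastatic library in all 4 classes, by a small amount each time. In aerocytes it was at 160 CPM in control and 183 CPM in metastatic cells, a log2 ratio of 0.19 (0.09 to 0.29). The ratio was 0.15 (0.002 to 0.29) in vein cells and 0.08 (-0.21 to 0.36) in artery cells. The intervals of the 4 classes overlapped. In aerocytes with fewer than 2 general capillary markers the log2 ratio for Tek was -0.02. It rested on 180 and 147 UMIs, at 40.3 CPM (34.6 to 46.7) and 39.9 CPM (33.7 to 46.9). Aerocytes with more such markers stood at 238 CPM (227 to 250) and 275 CPM (262 to 289). Whether the ratio differed between these parts of the class was not tested.

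Ptprb was lower in metastatic vein cells, at 3749 CPM in control and 3380 CPM in metastatic cells, a log2 ratio of -0.15 (-0.19 to -0.11). With cells that held 2 or more markers of another cell type left out, the ratio was -0.07 (-0.12 to -0.03). In vein cells with a UMI of Vcam1, an adhesion molecule for leukocytes, Ptprb stood at 3829 and 3674 CPM, and in vein cells without one at 3601 and 2780 CPM. The lower level was therefore mostly in vein cells without a Vcam1 UMI (97 control and 108 metastatic cells). Such cells were shallower, with medians of 7341 against 8888 UMIs in the control and 7259 against 8594 UMIs in the metastatic library. The part of depth in these values was not tested.

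Reactive capillary cells, the state that the study described, were approached through Inhbb, a subunit of activin that served it as a marker. A UMI of Inhbb was found in 116 control and 338 metastatic general capillary cells. In the metastatic library Tek was at 342 CPM (321 to 365) in cells with an Inhbb UMI and 465 CPM (457 to 473) in cells without, and Ptprb at 2207 CPM (2152 to 2263) and 2844 CPM (2824 to 2864). In the control library Tek was at 363 and 421 CPM, again lower with Inhbb, whereas Ptprb was at 3036 and 2821 CPM, higher with Inhbb. Tie1 was at 172 and 214 CPM in the metastatic and 178 and 204 CPM in the control library. Cells with the marker were somewhat deeper, with medians of 7244 against 6193 UMIs in the metastatic library, and the part of depth in these values was not tested.

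**Figure D3:**
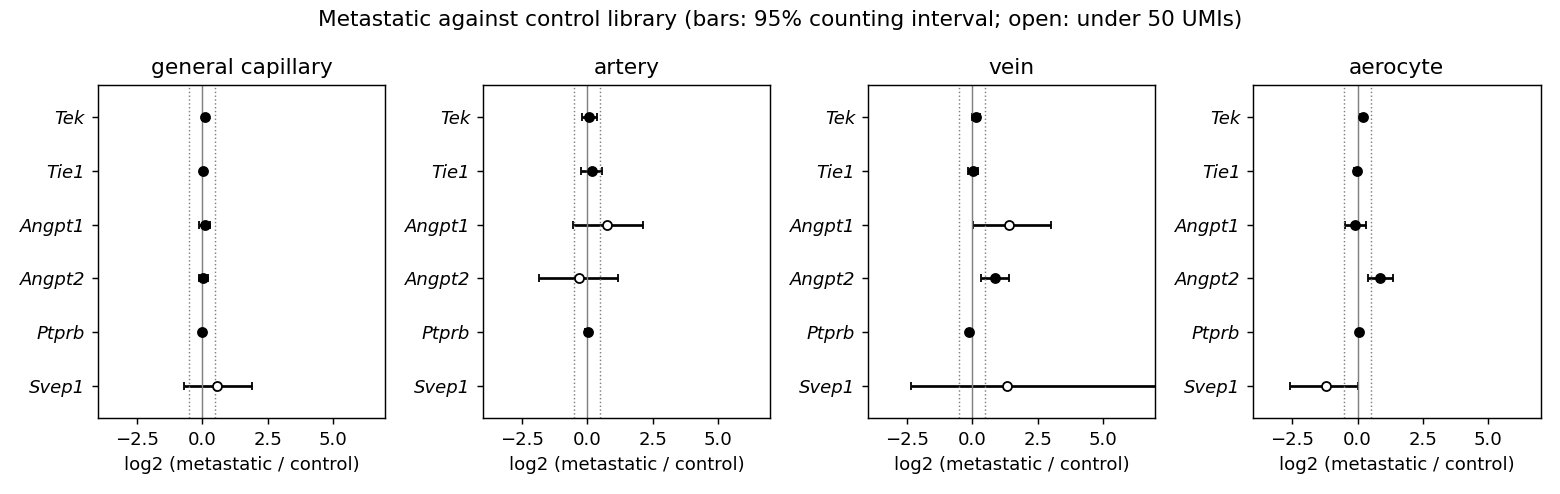
Log2 ratio of the metastatic to the control library (horizontal axes) for each gene in each endothelial class; whiskers are exact 95% intervals for counting error, open points rest on under 50 UMIs, dotted lines mark 0.5 and -0.5, the whisker of vein Svep1 runs past the right edge, and artery Svep1 is not drawn because the control library held no UMI. Angpt2 in vein cells and in aerocytes, both at 0.86, are the closed points beyond the dotted lines.

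Angpt2, at chr8:18690263-18741562 on the minus strand and within Mcph1 on the opposite strand, showed the largest log2 ratios between the libraries among members with 50 or more UMIs. In vein cells 44 UMIs in 34 of 247 control cells and 97 UMIs in 72 of 304 metastatic cells gave 19.9 CPM (14.5 to 26.8) and 36.3 CPM (29.4 to 44.2), a log2 ratio of 0.86 (0.33 to 1.41). The highest vein cell held 4 Angpt2 UMIs in each library, and without it in either library the ratio was 0.94 (0.39 to 1.51). After thinning to 2000 UMIs, 2.44% (0.90 to 5.23) of control and 7.59% (4.87 to 11.2) of metastatic vein cells held Angpt2, and at full depth 13.8% and 23.7%. Among the 45 control lymphoid cells 0 held an Angpt2 UMI, which by the floor of 3 counts allows a share of cells with a UMI of up to 6.67%, and among 42 metastatic lymphoid cells 1 did.

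In aerocytes Angpt2 was at 5.74 CPM (4.43 to 7.32) in the control library, from 65 UMIs in 59 cells, and 10.4 CPM (8.48 to 12.7) in the metastatic library, from 98 UMIs in 75 cells, a log2 ratio of 0.86 (0.40 to 1.34). The highest metastatic cell held 7 of these UMIs, and without the highest cell of each library the ratio was 0.82 (0.34 to 1.31). Thinned shares were 1.40% (0.85 to 2.18) and 1.77% (1.07 to 2.75), whose intervals overlapped. In the 605 and 495 aerocytes with fewer than 2 general capillary markers, 11 UMIs were counted in each library, at 2.46 CPM (1.23 to 4.41) and 2.98 CPM (1.49 to 5.34). Aerocytes with 2 or more of them stood at 7.87 CPM (5.91 to 10.3) and 15.3 CPM (12.2 to 18.8). Their levels were 8.45 and 16.5 CPM once marked doublets were left out. The difference between the libraries was thus seen in aerocytes that also carried general capillary RNA. In the other aerocytes, 11 UMIs per library were too few to show whether it was present. The 48.7 and 39.8 CPM of barcodes with 11 to 50 UMIs lay above both kinds of aerocyte in each library.

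General capillary cells showed no such difference, with Angpt2 at 18.0 CPM (16.6 to 19.5) in control and 18.6 CPM (17.1 to 20.2) in metastatic cells and a log2 ratio of 0.05 (-0.12 to 0.22). The log2 ratio of general capillary cells was exceeded in aerocytes by 0.81 (0.33 to 1.30) and in vein cells by 0.81 (0.27 to 1.35), again for counting error only. Artery cells held 10 and 8 Angpt2 UMIs, too few to place. Angpt2 was thus the 1 member past the fold among 5 with 50 or more UMIs in aerocytes, where 8.1% of genes passed in either direction, and the 1 among 4 in vein cells, where 12.6% did; in artery cells 0 of 3 members passed, where 18% of genes did. It lay at percentile 98.5 of all genes tested in aerocytes and 97.5 in vein cells.

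Control vein cells without Vcam1 held 24 Angpt2 UMIs, at 30.9 CPM (19.8 to 46.0), and those with it 20, at 14.0 CPM (8.54 to 21.6). Metastatic vein cells without and with Vcam1 stood at 44.3 CPM (31.5 to 60.6) and 32.3 CPM (24.5 to 41.8). Within each library these intervals overlapped. Cells without Vcam1 were also shallower, and the part of depth was not tested. The metastatic level was higher in each kind of vein cell, and in those with Vcam1 the intervals of the libraries did not overlap.

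Angpt1, at chr15:42424723-42676977 on the minus strand and overlapped by Gm17473 on the opposite strand, was sparse in every class. General capillary cells held 11.4 CPM (10.3 to 12.7) in the control and 12.2 CPM (11 to 13.5) in the metastatic library, and aerocytes 11.4 and 10.8 CPM. Vein cells held 6 UMIs in the control and 19 in 9 cells in the metastatic library, and artery cells 9 and 15 UMIs. Neither general capillary cells nor aerocytes differed between the libraries beyond counting error.

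Markers of other cell types moved with Angpt1. Of the 511 Angpt1 UMIs in the 4 classes of the control library, 103 were in 44 cells that also held 2 or more of the fibroblast markers Col1a1, Col1a2, Col3a1, Dcn and Pdgfra, at 250.2 CPM (204 to 303). Cells with 2 or more mural markers (pericytes and smooth muscle) stood at 73.0 and 74.2 CPM in the libraries, and those with 2 or more platelet markers at 32.8 and 35.5 CPM. Outside the classes, cells with platelet markers and fewer than 2 endothelial markers reached 338 CPM (15 control cells) and 381 CPM (19 metastatic cells). No Angpt1 UMI was found in the 45 and 42 lymphoid cells, which by the floor of 3 counts allows a share of cells with a UMI of up to 6.67% and 7.14%, with no statement on cells that express the gene at a lower level.

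With all cells that held 2 or more markers of another type left out, Angpt1 in general capillary cells was at 7.43 CPM (6.45 to 8.51) in the control and 8.01 CPM (6.94 to 9.20) in the metastatic library. This removed 11.1% and 14.8% of the general capillary cells but 43.9% and 45.9% of their Angpt1 UMIs. In aerocytes 55.8% and 61.4% of the Angpt1 UMIs went with 8.87% and 12.3% of the cells. For Tek the loss in general capillary cells was 11.5% and 15.2%, about the share of cells removed. In vein cells 16 of the 19 metastatic UMIs were lost, which left 5 control and 3 metastatic UMIs and turned the log2 ratio from 1.38 to -0.90 (-3.58 to 1.47). Platelet markers were found in 6.73% of control and 10.7% of metastatic general capillary cells, with a summed level of 180 and 278 CPM, and their part in the Angpt1 values was not tested.

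**Figure D4:**
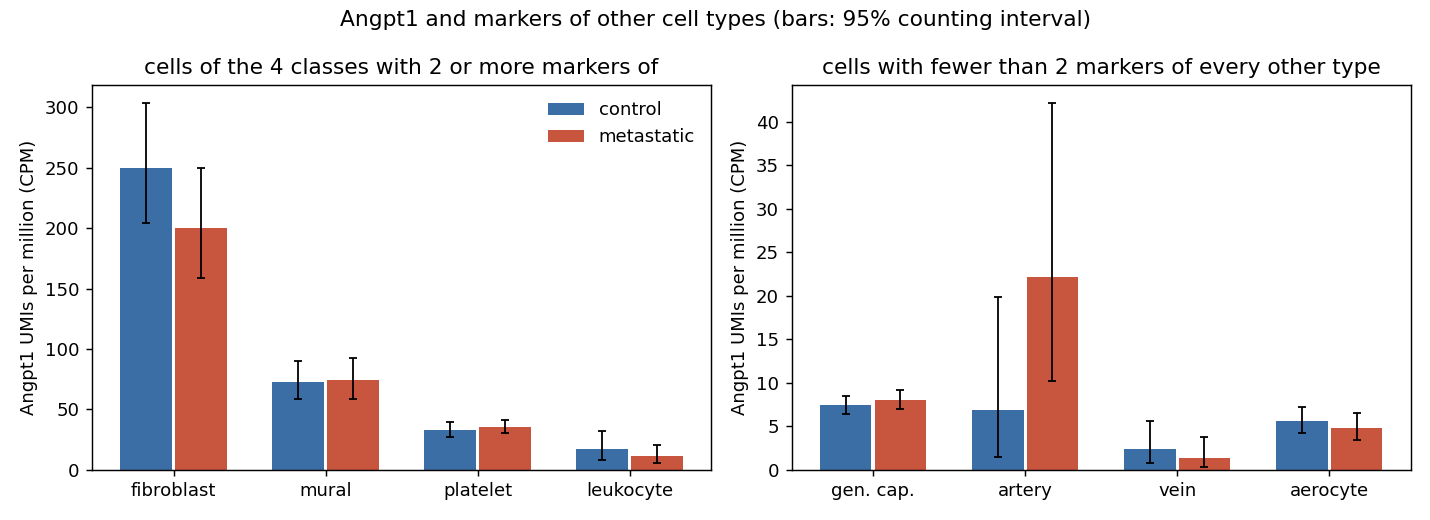
Angpt1 level in CPM (vertical axes, from 0) in cells of the 4 classes that hold 2 or more markers of another cell type (left) and in each class after cells with 2 or more markers of any other type were left out (right); bars are sums by library and whiskers 95% Poisson intervals. Cells with fibroblast markers stand at 250.2 CPM in the control library against 7.43 CPM in the general capillary cells that remain.

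Svep1, at chr4:58042442-58206859 on the minus strand with Gm26889 on the opposite strand, was close to the floor of the counts in endothelial cells. General capillary cells held 10 control and 14 metastatic UMIs, aerocytes 22 and 8, vein cells 1 and 3 and artery cells 0 and 1. Of the 33 control UMIs in the classes 20 were in the 44 cells with fibroblast markers, and of the 26 metastatic UMIs 9 were in 39 such cells. The cells with fibroblast markers had 48.6 CPM (29.7 to 75.0) and 22.8 CPM (10.4 to 43.3), against 0.28 and 0.40 CPM in all other cells of the classes. Control aerocytes, at 1.94 CPM (1.22 to 2.94), were above control general capillary cells, at 0.31 CPM (0.15 to 0.57), and 81.8% of their UMIs were in cells with 2 or more markers of another type. Once such cells were left out, 4 and 7 UMIs remained.

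Other genes of the pathway were followed in general capillary cells, where 49 of 56 listed genes had 50 or more UMIs over both libraries. The fold of 0.5 was passed upward by 4 and downward by 3, which is 7 of 49 beside 9.63% of all genes (6.19% upward and 3.44% downward), and the median log2 ratio of the 49 was 0.04. Kdr, the gene of VEGFR2, a receptor that VE-PTP also acts on, was at 231 CPM in control and 372 CPM in metastatic cells, a log2 ratio of 0.69 (0.64 to 0.73). Mmp14, a membrane metalloprotease that sheds TIE2, was at 20.3 and 29.6 CPM, a log2 ratio of 0.54 (0.39 to 0.69). Itga5, the fibronectin receptor subunit that associates with TIE2, was at 45.4 and 64.7 CPM (log2 ratio 0.51, 0.41 to 0.61), and Esm1, a secreted proteoglycan, at 14.3 and 20.6 CPM (0.52, 0.35 to 0.70).

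Downward, Foxo3 was at 48.5 CPM in control and 29.5 CPM in metastatic cells, a log2 ratio of -0.72 (-0.84 to -0.60), and Foxo1, the member of that family most studied downstream of TIE2, at 150 and 132 CPM, with a log2 ratio of -0.18 (-0.24 to -0.12). Rab27a, a small GTPase that holds Weibel-Palade bodies at the cell periphery, was at 91.3 and 59.9 CPM (-0.61, -0.69 to -0.52). Pdk4, a kinase gene that FOXO factors can induce, rested on 53 and 30 UMIs (-0.74, -1.43 to -0.06). Genes listed as FoxO-responsive went both ways, with 1 past the fold in each direction among 10 and a median log2 ratio of 0.10. The adaptors and the phosphatase Ptpn11 all stayed within the fold, from -0.30 (Grb14) to 0.22 (Tnip2) among the 7 with enough UMIs, and Cdh5 and Jup, junction genes of the VE-PTP complex, were at 0.01 each.

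Of the 7 transcription factors listed for Tek, Tie1 or Angpt2, 5 had enough UMIs in general capillary cells and none passed the fold. Gata2 was lowest, at 711 CPM in control and 539 CPM in metastatic cells, a log2 ratio of -0.40 (-0.43 to -0.37), and Ets1 highest, at 399 and 479 CPM (0.26, 0.23 to 0.30). Angpt4, another ligand, and Lect2, a secreted ligand of TIE1, had 0 UMIs in general capillary cells of both libraries. In the smaller classes 8 of 46 listed genes passed the fold in aerocytes (8.1% of all genes), 6 of 45 in vein cells (12.6%) and 4 of 29 in artery cells (18%).

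**Figure D5:**
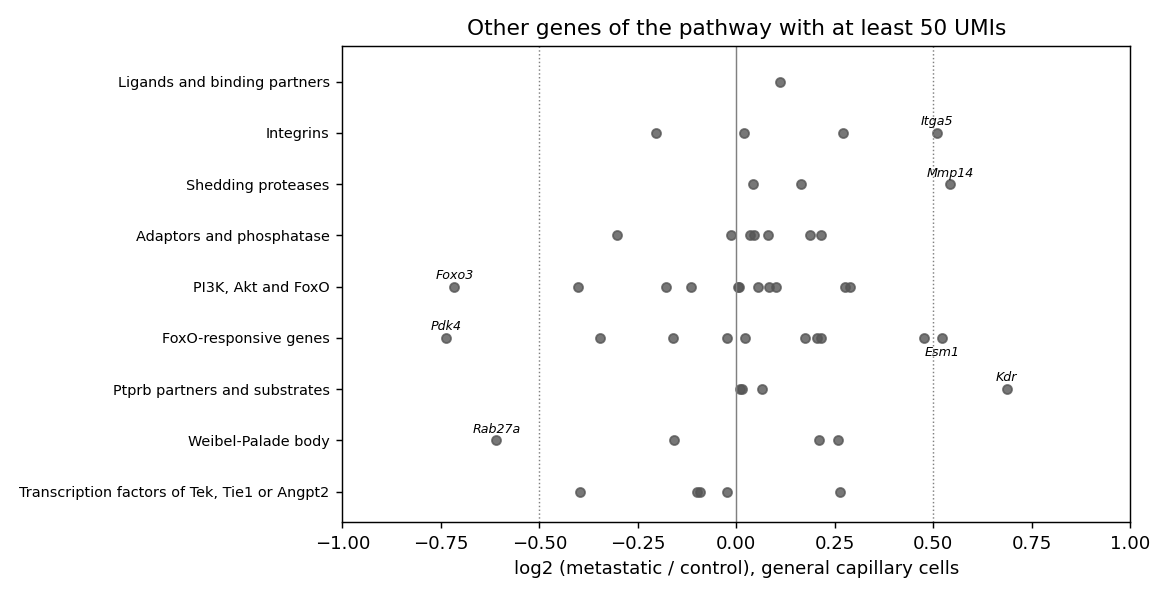
Log2 ratio of the metastatic to the control library in general capillary cells (horizontal axis) for the 49 listed pathway genes with at least 50 UMIs, 1 point per gene, by list (vertical axis); dotted lines mark 0.5 and -0.5 and the genes beyond them are named. Kdr stands highest at 0.69 and Pdk4 lowest at -0.74, and the median is 0.04.

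The genes whose levels followed each member most closely over the 8 sums of class and library were named by Pearson correlation of log2(CPM + 1) among 7697 genes, as a description only, since the 8 sums share libraries, depth and class rules. Plvap, a component of endothelial fenestrae and caveolae, came first for Tek (r = 0.99), followed by Itga6 and Hipk1. Sigirr, Ifi44 and Pdlim5 were nearest to Tie1 (each r = 0.98). Ribosomal protein genes Rps6, Rps19 and Rpsa were nearest to Ptprb (r from 0.99 to 1.00). Dtnbp1, H2afv and Mcm6 were nearest to Angpt2 (r from 0.95 to 0.97) and Zbtb44, Erg28 and Ndufs4 to Angpt1 (each r = 0.95). Svep1 had too few UMIs to enter.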

How the data were processed

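Single-cell RNA-seq counts of 2 libraries (10x Genomics 3′ kit) were used. The authors deposited raw UMI counts per gene and barcode for all 6794880 listed barcodes, made with Cell Ranger on mm10 per the labels, with no cell calling or normalization, and the headers of the deposited matrices give software version 3.1.0. The annotation release behind the counts is not given in the sources used here. Coordinates are those of GENCODE M21 (GRCm38).

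The 6 genes, the class rule and all lists were chosen with earlier results of these data known. All 6 genes are named, with up to 4 genes of each pathway list by size of the log2 ratio, and the 3 genes most like each member among those with at least 20 CPM in 1 sum and 200 UMIs in all; other pathway genes were named after their values were seen. Raw counts were summed by class and library and scaled to CPM. CPM carry exact Poisson intervals, ratios exact conditional binomial intervals and shares exact Clopper-Pearson intervals, at 95%. UMIs are molecules, and intervals and floors (3 counts) cover counting error only. Depth was 67929614 and 64733724 UMIs. Genes with at least 50 UMIs over both sums were compared, and a log2 ratio of 0.5 or more, or of -0.5 or less, stood in for a call. Ratios and thinning were tested on simulated data. Doublets were scored with Scrublet in scanpy 1.11.5 and marked at 0.8% per 1000 cells (407 and 334 cells) but left in. Alternatives covered the gene and mitochondrial limits, free RNA, doublets, cells with markers of other types, thinning, cells of more than 1 class, TMM factors (edgeR 4.0.16), the mean over cells and shared barcodes.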

Additional observations from a re-analysis of the deposited data

Results flagged for a closer look

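Ptprb differed in sign between classes, with log2 ratios (metastatic over control) of 0.040 (0.002 to 0.077) in aerocytes, -0.022 (-0.04 to -0.01) in general capillary cells and -0.15 (-0.19 to -0.11) in vein cells; with 1 library per group these differences were not tested. When aerocytes with 2 or more general capillary markers were left out, an alternative chosen after seeing the data, the aerocyte ratio was -0.28, from 183 control and 151 metastatic CPM, and the sign no longer differed from that of the other 2 classes.

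Cells outside the 4 classes gave the other values that stood apart from the control library. In cells that met more than 1 of the aerocyte, vein and artery rules the log2 ratio of Angpt1 was 3.44 (1.36 to 6.61). It came from 2 UMIs in 1 control cell and 16 UMIs in 3 metastatic cells. In the same cells Ptprb had a log2 ratio of 0.38 (0.27 to 0.49), at 2544 control and 3301 metastatic CPM. In cells of no class the log2 ratio of Svep1 was 2.097 (0.28 to 4.53), from 3 and 15 UMIs, and 14 of the 15 were in 9 cells with fibroblast markers and fewer than 2 endothelial markers.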

How the results depend on the processing

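Of 683 values of 61 results under the alternatives, 618 stayed within the counting interval of the main value or, for counts, within 1.5 times the main count, and 64 moved further. The log2 ratio of Ptprb in general capillary cells was -0.046 with TMM scaling (-0.022 before). The number of members past the fold by library in aerocyte, vein and artery cells was 1 in place of 2 when aerocytes with 2 or more general capillary markers were left out, an alternative chosen after seeing the data, because Angpt2 then had a log2 ratio of 0.28 in aerocytes. The log2 ratio of Angpt1 in control artery to general capillary cells turned from 0.68 to -0.13 when cells with markers of other types were left out, from 9 to 3 artery UMIs. The Angpt2 ratio ran from 0.75 to 1.07 in vein cells and from 0.60 to 0.92 in aerocytes while these were kept whole. Leaving out aerocytes with 2 or more general capillary markers also widened the gap of aerocytes to general capillary cells. The Tek log2 ratio went from -1.39 to -3.38 in the control and from -1.31 to -3.51 in the metastatic library. For Ptprb it went from -1.38 to -3.95 and from -1.32 to -4.21. The ratio of Tek in general capillary cells ran from 0.09 to 0.13. The share of free RNA was set, after the data were seen, by the lowest ratio over genes of other cell types. It came to at most 0.902% of a class and to 0 in vein and artery cells, where nothing was subtracted. A lowest ratio falls to 0 where 1 such gene had no UMI, so it is not an upper limit. Control lymphoid cells held Ptprb at 42.6 CPM, where control barcodes with 11 to 50 UMIs held 586 CPM. No paired analysis was possible because each group held 1 library, so the groups shared fewer than 2 replicate numbers. With 1 library of 2 pooled mice per group, and 63 and 59 artery cells, differences in Angpt1, Angpt2 and Svep1 in artery cells were not detectable at this depth.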

Other observations

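Barcodes with 11 to 50 UMIs held Angpt2 at 48.7 CPM (33.3 to 68.8) in the control and 39.8 CPM (26.7 to 57.2) in the metastatic library. These levels were above the 18.0 and 18.6 CPM of general capillary cells and the 5.74 and 10.4 CPM of aerocytes. Vein cells stood at 19.9 and 36.3 CPM, and only in the metastatic library did their interval overlap that of the barcodes. Tek in these barcodes was at 83.8 and 68.6 CPM and Ptprb at 586 and 646 CPM, below their general capillary levels. Both genes were higher in these barcodes than in aerocytes with fewer than 2 general capillary markers, where Tek was at 40.3 and 39.9 CPM and Ptprb at 183 and 151 CPM. Cells of no class held Angpt1 at 41.5 CPM (33.3 to 51.2) and 44.0 CPM (36.1 to 53.1), above the level of every class, though the interval overlapped that of artery cells in each library.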
